A study of Capra hircus with 12 samples.

Results

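CXCR2, S100A12, TRPM2, C5AR1 and LOC102175938 (the cytochrome b-245 heavy chain) are genes of neutrophils and other phagocytes. They were chosen by name, and all 5 had counts in every library, out of 4974 genes in the 6 deposited tables and 1408 genes with counts in all 12 libraries. RNA was sequenced from mammary gland biopsies of 12 lactating goats of the Majorera and Palmera breeds, with 3 animals and 3 libraries in each of 4 groups. The Majorera control (MC) and Palmera control (PC) goats received a diet that met the needs of lactation. The Majorera restricted (ME) and Palmera restricted (PE) goats received wheat straw with a vitamin and mineral supplement until they had lost weight. All goats were healthy and entered the trial near the peak of lactation. By its end, when biopsies were taken, the paper reports that milk yield had dropped strongly in both restricted groups. The control and restricted goats stood in separate pens, so pen and diet cannot be told apart. Libraries are named by group and replicate number (ME2 is the second Majorera restricted library).

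Phagocytes are the white blood cells that engulf microbes, and neutrophils and macrophages are the main kinds in the udder, where they enter milk and guard against mastitis. Neutrophils leave the blood along gradients of chemokines and of the complement fragment C5a, release calcium-binding S100 proteins, and kill microbes with oxidants made by the NADPH oxidase. The roles given below for single genes are those known from human or mouse. CXCR2 is the neutrophil receptor for interleukin 8 and related chemokines, and C5AR1 is the receptor for C5a. S100A12 is, in human, a calgranulin stored in the neutrophil cytoplasm. TRPM2 is a calcium channel of the cell membrane that opens to ADP-ribose under oxidative stress. The cytochrome b-245 heavy chain is the catalytic, membrane-bound subunit of the phagocyte NADPH oxidase.

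Levels are given in CPM, the estimated counts scaled to a fixed number of mapped reads per library after a correction for RNA composition. A single read was worth between 0.0119 CPM (ME2) and 0.0353 CPM (MC3), so the lowest values below rest on few reads. Genes are compared between libraries only, since no lengths were used to set 1 gene against another. The tissue label held up in the milk protein genes: the summed level of 6 secretory genes (4 caseins, LALBA and KRT18) lay between 378491 and 522559 CPM in MC and between 401537 and 624234 CPM in PC. The sums were 285281, 76305 and 207491 CPM in ME1 to ME3 and 136046, 393756 and 105424 CPM in PE1 to PE3. ME2 thus had the lowest milk protein sum of the 12 libraries, and PE2 lay within the range of MC. In a biopsy, fewer cells of a type and less RNA per cell cannot be told apart.

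CXCR2 was highest in 2 of the restricted Palmera libraries. Its levels were 0.646, 0.163 and 0.353 CPM in MC1 to MC3 and 0.556, 0.846 and 1.28 CPM in ME1 to ME3. In the Palmera goats they were 0.686, 0.310 and 0.167 CPM in PC1 to PC3 and 2.69, 0.272 and 2.87 CPM in PE1 to PE3. PE1 and PE3 stood above every other library, whereas PE2 lay among the controls and the MC and ME libraries overlapped. Behind these levels were 4.65 estimated counts at the lowest (MC2) and 153.29 at the highest (PE3). The order of the group means was PE (1.94 ± 1.45, SD, n = 3), ME (0.895 ± 0.366), PC (0.388 ± 0.268) and MC (0.387 ± 0.243), and every neighbouring pair in this order overlapped in its libraries.

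S100A12 had the widest spread of the 5 genes. It was at 2.15, 0.352 and 0.565 CPM in MC1 to MC3 and at 1.37, 17.3 and 3.08 CPM in ME1 to ME3. The Palmera levels were 1.94, 0.375 and 0.157 CPM in PC1 to PC3 and 22.4, 0.817 and 3.24 CPM in PE1 to PE3. Both restricted groups thus owed their mean to 1 library, ME2 or PE1, and both overlapped with their controls. The highest level exceeded the lowest 27.5 times within PE and 12.7 times within ME. The group means were 8.83 ± 11.8 (PE), 7.25 ± 8.75 (ME), 1.02 ± 0.982 (MC) and 0.824 ± 0.972 CPM (PC, SD, n = 3 each), and no neighbours in this order were separated.

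TRPM2 separated the diets in both breeds. In MC it stood at 0.834, 0.352 and 0.812 CPM, and in ME at 1.89, 2.81 and 2.34 CPM. In PC it stood at 0.626, 0.938 and 0.786 CPM, and in PE at 2.49, 1.26 and 3.03 CPM. Every restricted library lay above every control library, with the lowest restricted value in PE2 and the highest control value in PC2. The means were 2.35 ± 0.460 (ME), 2.26 ± 0.909 (PE), 0.783 ± 0.156 (PC) and 0.666 ± 0.272 CPM (MC, SD, n = 3 each). Within each diet the breeds overlapped.

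C5AR1 was highest in ME3 and PE1. Its levels were 1.03, 0.598 and 0.918 CPM in MC, 2.41, 1.82 and 4.54 CPM in ME, 1.00, 0.719 and 0.692 CPM in PC, and 3.13, 0.749 and 1.31 CPM in PE. All ME libraries were above all MC libraries, while PE2 lay within the range of PC. The means were 2.92 ± 1.43 (ME), 1.73 ± 1.24 (PE), 0.847 ± 0.223 (MC) and 0.804 ± 0.171 CPM (PC, SD, n = 3 each), and neighbours in this order overlapped.

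LOC102175938, the oxidase subunit, was highest in the restricted Majorera goats. It measured 2.09, 1.48 and 1.34 CPM in MC, 3.43, 10.01 and 4.73 CPM in ME, 2.16, 1.25 and 1.32 CPM in PC, and 2.49, 1.91 and 2.71 CPM in PE. ME2 was more than any other library, the ME libraries were separated from those of each other group, and PE overlapped with PC through PE2 and PC1. The means were 6.05 ± 3.49 (ME), 2.37 ± 0.418 (PE), 1.63 ± 0.396 (MC) and 1.58 ± 0.505 CPM (PC, SD, n = 3 each).

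**Figure D1:**
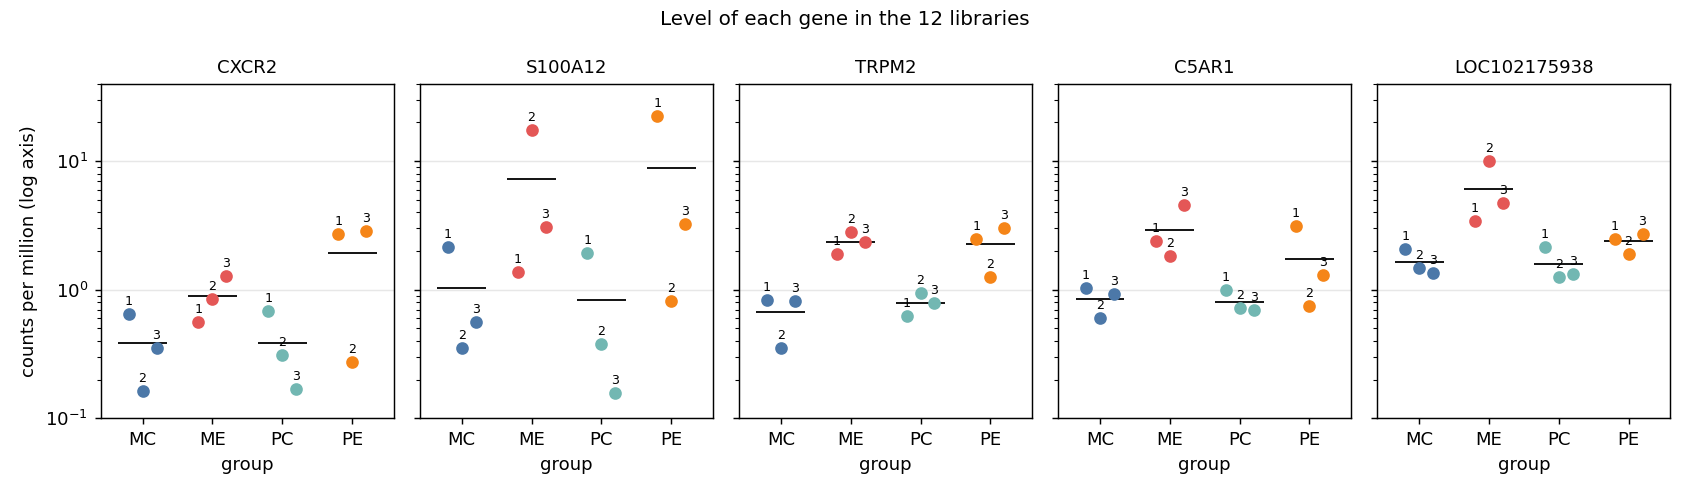
Level of the 5 genes in each library, in CPM on a log axis. Points are libraries with their replicate number, colours are the 4 groups, and bars are group means. TRPM2 is higher in all 6 restricted libraries (1.26 to 3.03 CPM) than in all 6 controls (0.352 to 0.938 CPM), whereas PE2 sits among the controls for CXCR2 (0.272 CPM) and C5AR1 (0.749 CPM).

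The comparison of MC vs. ME addressed the response of the Majorera gland to feed restriction. All 5 genes were higher in ME, with a Log2FC (ME over MC) of 2.79 ± 1.00 (SE) for S100A12, 1.87 ± 0.41 for LOC102175938, 1.79 ± 0.36 for TRPM2, 1.76 ± 0.41 for C5AR1 and 1.17 ± 0.51 for CXCR2. The median over the 2313 genes with counts in these libraries was 0.11. None of the 5 had an adjusted p below 0.05 in edgeR's quasi-likelihood test (Benjamini-Hochberg), which 0.0397% of the 15102 tested genes had. The edgeR adjusted p was 0.139 for TRPM2, 0.155 for LOC102175938, 0.164 for C5AR1, 0.313 for S100A12 and 0.491 for CXCR2. At an unadjusted edgeR p below 0.05 there were 4 of 5, against 5.2% of all tested genes that were higher in ME at that level, and CXCR2 missed it (0.0509). The table deposited for this pair was selected on the same contrast and lists all 5, so nothing is read from this count. S100A12 rested on ME2, without which its Log2FC was 1.08.

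The call in this pair depended on the test and on the scaling. DESeq2's Wald test gave adjusted p-values of 0.0139 for TRPM2, 0.0169 for LOC102175938 and 0.0439 for C5AR1, so these 3 met the criteria of the study for a differentially expressed gene (adjusted p below 0.05, absolute Log2FC above 1.5, more than 100 counts in at least 1 library). With the mapped reads alone, without the correction for composition, the edgeR adjusted p was 0.0390 for each of the same 3 genes. Among all 15102 tested genes, 32 (0.212%) were called higher in ME by DESeq2 under these criteria, all among the 2313 with counts. The members had been selected by the authors on this same contrast, so nothing is read from the number called. Over all alternatives the adjusted p (edgeR, or DESeq2 where that was the alternative) ranged from 0.0139 to 0.463 for TRPM2, from 0.0169 to 0.463 for LOC102175938 and from 0.0390 to 0.449 for C5AR1. The same 3 genes had no overlap between the 3 MC and the 3 ME libraries, which held in the same direction for 28.2% of the genes with counts in both groups.

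The comparison of PC vs. PE addressed the same question in the Palmera gland. Again all 5 genes were higher in the restricted group, and the order differed. The Log2FC (PE over PC) was 3.41 ± 1.16 for S100A12, 2.35 ± 0.77 for CXCR2, 1.54 ± 0.36 for TRPM2, 1.11 ± 0.48 for C5AR1 and 0.60 ± 0.28 (SE) for LOC102175938, beside a median of 0.04 over 2843 genes. No adjusted p was below 0.05 in edgeR, where 0.00678% of the 14753 tested genes were, or in DESeq2, where 1.42% were. The smallest belonged to TRPM2, with 0.113 in edgeR and 0.0602 in DESeq2 after Benjamini-Hochberg adjustment. Without adjustment, 4 of 5 had an edgeR p below 0.05, against 7.49% of all tested genes that were higher in PE, and LOC102175938 did not (0.0655). The same 4 are listed in the table deposited for this pair, so nothing is read from this count either. TRPM2 alone had no overlap between PC and PE, as had 31.1% of the genes with counts in both groups.

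The values of this pair moved with single libraries of both groups. Without PC1 the Log2FC was 5.02 for S100A12, 3.05 for CXCR2, 1.40 for TRPM2, 1.29 for C5AR1 and 0.88 for LOC102175938. Without PE3 it was 1.96 for CXCR2. Without PE1 the Log2FC was 1.33 for S100A12 and 0.38 for C5AR1. Without PE2 the Log2FC of CXCR2 was 2.83 and that of TRPM2 1.81, with edgeR adjusted p-values of 0.0449 and 0.0434. Over all alternatives the adjusted p (edgeR or DESeq2) ran from 0.00120 to 0.556 for CXCR2 and from 0.0228 to 0.322 for TRPM2. For S100A12 the edgeR adjusted p was 8.97e-08 with mapped reads alone and 0.0262 when the spread was estimated without a filter on low counts. With 1 library left out it was at least 0.0958. PE2 was the restricted library with the highest milk protein sum (393756 CPM) and the lowest summed levels of neutrophil and of macrophage genes (below), and the part of these in the result was not tested.

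**Figure D2:**
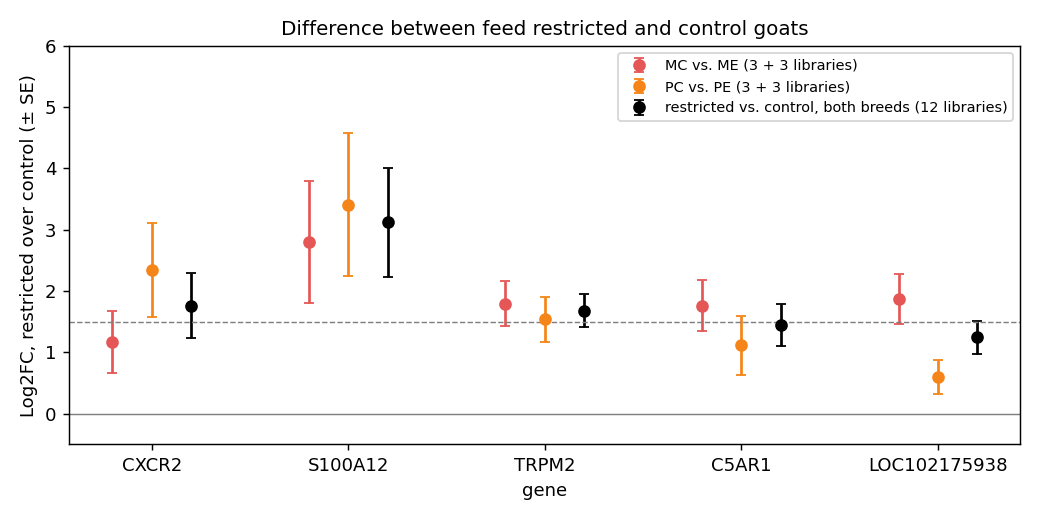
Log2FC of restricted over control goats for the 5 genes, with bars of 1 SE. Red points are MC vs. ME, orange points PC vs. PE, black points the effect over both breeds, and the dashed line is a Log2FC of 1.5. All 15 values are positive, from 0.60 (LOC102175938, PC vs. PE) to 3.41 (S100A12, PC vs. PE).

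Fitted over all 12 libraries, the effect of restriction averaged over the breeds was positive for all 5 genes, and it passed the test for 3. TRPM2 rose by a Log2FC of 1.68 ± 0.27 (SE, edgeR adjusted p = 0.00965), LOC102175938 by 1.24 ± 0.27 (edgeR adjusted p = 0.0310) and C5AR1 by 1.45 ± 0.35 (edgeR adjusted p = 0.0473). S100A12 (3.12 ± 0.89, edgeR adjusted p = 0.0934) and CXCR2 (1.76 ± 0.53, edgeR adjusted p = 0.120) did not pass. Of the 1408 genes in this fit 14.9% passed with a higher level in restricted goats, and the median Log2FC of all 1408 was 0.21. These 1408 genes were all listed in at least 1 deposited table, so they are not a random set. TRPM2 alone also met the fold and count criteria, as did 3.2% of the genes in the direction of restriction. DESeq2 passed S100A12 as well (adjusted p = 0.0291), which made 4 of 5 against 22.1% of the genes. All 5 members had been selected by the authors' p in MC vs. ME, from libraries that this fit reuses. Nothing is therefore read from these counts of members.

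TRPM2 was also the single member of the 5 whose 6 restricted libraries did not overlap with the 6 controls, against 9.3% of the 1408 genes. Its edgeR adjusted p stayed between 0.00565 and 0.0306 when each of the 12 libraries was left out in turn. The calls of the other genes were less stable in these fits. C5AR1 kept an edgeR adjusted p below 0.05 in 2 of 12 such fits (without ME2 or PE2) and LOC102175938 in 5 of 12, with highest values of 0.138 and 0.0865. CXCR2 and S100A12 reached 0.0228 and 0.0474 in edgeR without PE2, and without PE1 the Log2FC of S100A12 was 2.08 instead of 3.12. With both ME2 and PE2 left out, the edgeR adjusted p was 0.0233 for CXCR2, 0.00557 for TRPM2, 0.0104 for C5AR1, 0.0290 for LOC102175938 and 0.0772 for S100A12.

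**Figure D3:**
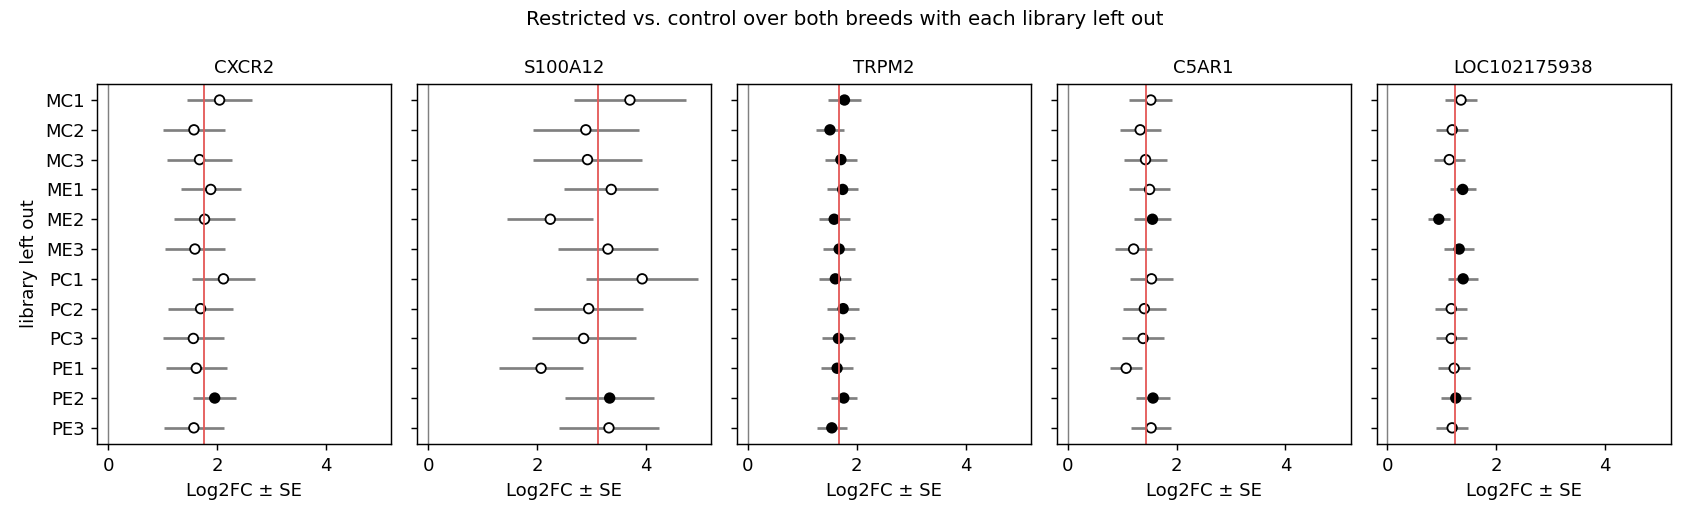
Log2FC of restricted over control goats over both breeds, with 1 library left out in each row (bars, 1 SE). Filled points have an edgeR adjusted p below 0.05, open points do not, and the red line is the value with all 12 libraries. TRPM2 is filled in all 12 rows, C5AR1 in 2 and LOC102175938 in 5, and S100A12 moves between 2.08 and 3.93.

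The comparisons of the breeds under the same diet asked whether the Majorera and Palmera glands differed. Between the controls (MC vs. PC) the 5 Log2FC values lay between -0.36 and 0.21 with SE between 0.32 and 0.84, and none of the 5 had an unadjusted edgeR p below 0.05, against 4.88% of tested genes. Between the restricted groups (ME vs. PE) LOC102175938 was lower in PE (Log2FC -1.35 ± 0.40, edgeR unadjusted p = 0.00955, adjusted p = 0.727), without overlap, and without ME2 its Log2FC was -0.78. It was the single member of the 5 at that unadjusted level, which 704 (4.63%) of the 15221 tested genes reached, all among the 2344 with counts. The table deposited for this pair was selected on the same contrast and lists LOC102175938, so nothing is read from this count. Of the genes with counts in both groups, 13.2% were lower in PE without overlap. CXCR2 had the opposite sign (1.14 ± 0.70), while TRPM2 was at -0.04 ± 0.33. The result for LOC102175938 depended on the scaling. With mapped reads alone its Log2FC in ME vs. PE was -2.02 (edgeR adjusted p = 0.00872). The median over all genes in this pair then moved from -0.05 to -0.61. Averaged over both diets, the breed effect had an edgeR adjusted p of 1 for each of the 5. LOC102175938 (-0.70 ± 0.26) alone was below 0.05 before the adjustment, with an edgeR p of 0.0200, as were 23.0% of the 1408 genes.

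The difference of the diet effect between the breeds (ME over MC minus PE over PC) was 1.30 ± 0.53 for LOC102175938 and -1.16 ± 1.07 (SE) for CXCR2. For the others it was 0.65 ± 0.69 (C5AR1), 0.27 ± 0.53 (TRPM2) and -0.60 ± 1.72 (S100A12). No interaction passed (edgeR adjusted p of 1 for each), and LOC102175938 alone had an unadjusted p below 0.05 (0.0294, edgeR), against 16.2% of the genes. With SE of this size a difference of 1 on the log2 scale was not detectable for CXCR2, S100A12, C5AR1, TRPM2 or LOC102175938. Even the 1.30 of LOC102175938 did not pass. The pairs of unlike breed and diet share their libraries with those above. In MC vs. PE the Log2FC ran from 0.52 (LOC102175938) to 3.06 (S100A12) with edgeR adjusted p between 0.129 and 0.592. In ME vs. PC it ran from -3.13 (S100A12) to -1.19 (CXCR2) with edgeR adjusted p between 0.134 and 0.416. The median over all genes in this pair was -0.70. DESeq2 called TRPM2 (adjusted p = 0.0191), LOC102175938 (0.0205) and C5AR1 (0.0271) there, beside 0.788% of the tested genes in either direction. All of these had been selected by the authors in this pair, so nothing is read from their number.

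Over the 12 libraries the 10 pairs of the 5 genes were all positively correlated, to unequal degrees. The Pearson correlation of log2(CPM + 1) was lowest between CXCR2 and LOC102175938 (r = 0.39, Spearman rho = 0.75) and highest between CXCR2 and TRPM2 (r = 0.78, rho = 0.75). Spearman's rho ran from 0.69 (TRPM2 and LOC102175938) to 0.93 (CXCR2 and S100A12). These are descriptions over libraries that share their scaling and the diet difference. Each gene was then set beside the gene most like it among 976 others with a mean of at least 1 CPM. CXCR2 went with CSF3R, the receptor for granulocyte colony-stimulating factor (r = 0.96, rho = 0.90, and r = 0.86 without PE1 and PE3). LOC102175938 went with CD68, a lysosomal protein of macrophages (r = 0.98, rho = 0.98, and r = 0.94 without ME2 and ME3).

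S100A12 was most like S100A8, another calgranulin (r = 0.97, rho = 0.96, and r = 0.93 without PE1 and ME2). TRPM2 was most like EVI2B, a leukocyte membrane protein (r = 0.96, rho = 0.93, and r = 0.93 without PE3 and ME2), and C5AR1 most like HMOX1, which breaks down heme (r = 0.85, rho = 0.88, and r = 0.88 without ME3 and PE1). The mean standardised level of the 5 was highest in PE1 (1.32), ME2 (1.28) and ME3 (1.06) and was -0.54 in PE2. The 5 genes most like that mean were APBB1IP, an adaptor of integrin signalling in leukocytes, SPIDR, a DNA repair scaffold, LOC102184463, CYGB (cytoglobin) and EVI2B, with r between 0.94 and 0.96 and rho between 0.79 and 0.95.

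**Figure D4:**
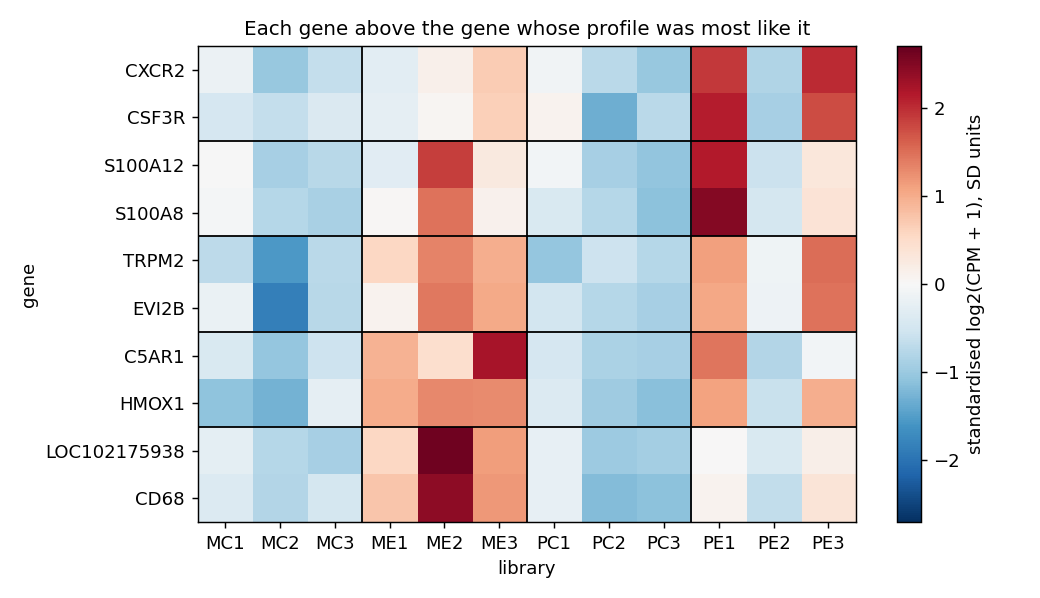
Standardised log2(CPM + 1) of the 5 genes over the 12 libraries, each above the gene whose profile was most like it. Red is above and blue below the mean of the gene, in SD units. CXCR2 and CSF3R are darkest in PE1 and PE3, S100A12 and S100A8 in PE1 and ME2, and LOC102175938 and CD68 in ME2.

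Ratios of counts within a library do not depend on how the libraries are scaled. LOC102175938 had between 0.223 and 0.381 counts per count of CD68 in all 12 libraries, a range of 1.71 times, although CD68 itself ran from 3.35 CPM (PC2) to 44.9 CPM (ME2). CD68 had been picked as the gene most like LOC102175938 in these same libraries, so the narrow range follows from that choice. CXCR2 per CD68 spanned 15.9 times, from 0.0189 in ME2 to 0.299 in PE1 and 0.266 in PE3. S100A12 per CD68 spanned 55.5 times, from 0.0450 in PC3 to 2.499 in PE1. Divided by the gene most like each of them, the ranges were narrower. CXCR2 per CSF3R spanned 5.76 times, and S100A12 per S100A8 3.46 times over the 11 libraries with S100A8 counts. The ratio of TRPM2 to CD68 spanned 4.50 times and that of C5AR1 8.62 times, both lowest in ME2 (0.0625 and 0.0404).

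**Figure D5:**
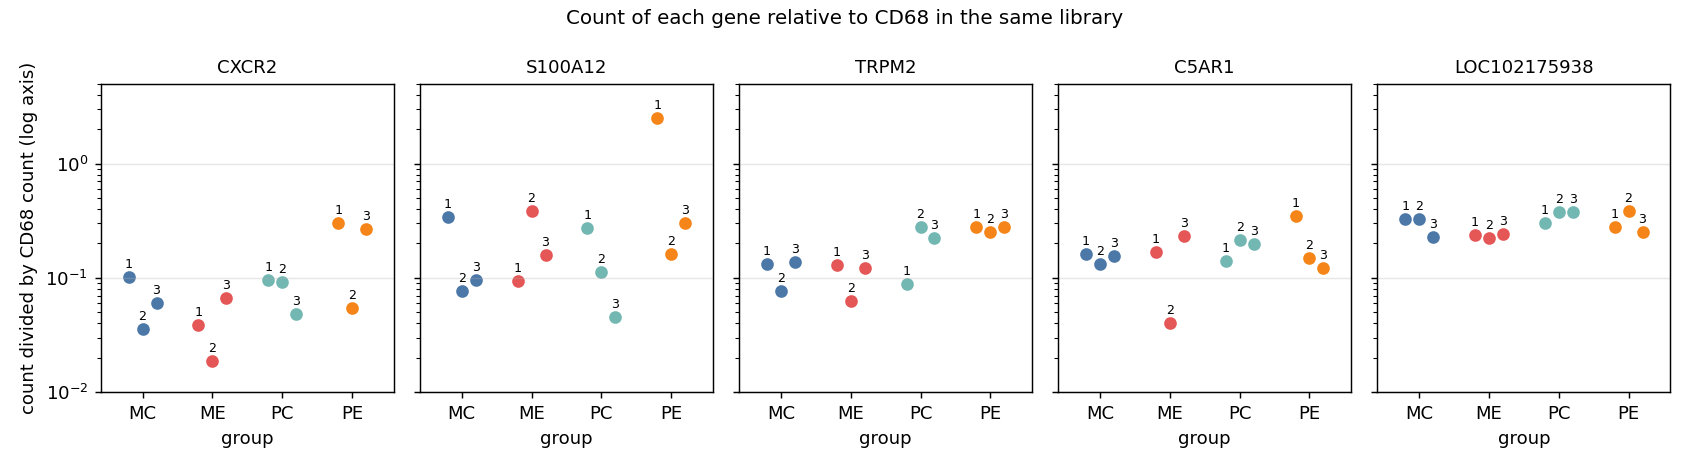
Count of each gene divided by the CD68 count of the same library, on a log axis. Points are libraries with their replicate number and colours are groups. LOC102175938, for which CD68 was the most similar gene in these libraries, stays between 0.223 and 0.381. CXCR2 reaches 0.299 and 0.266 in PE1 and PE3 and falls to 0.0189 in ME2.

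Genes around these 5 were taken from lists of known pathways and cell types. Counts were at hand only for genes with an unadjusted p below 0.05 in at least 1 deposited table, so the counts below describe those genes and not whole lists. Of 28 other neutrophil genes, 14 had counts in some library, 10 in MC and ME and 8 in PC and PE. In MC vs. ME 8 of the 10 were higher and 1 lower in ME at an unadjusted edgeR p below 0.05, with a median Log2FC of 2.39. Of all genes with counts in MC and ME, 33.9% were higher at that level, and 9 of the 10 are in the deposited table of the pair. In PC vs. PE 7 of the 8 were higher in PE and none lower at that level, with a median of 2.00. Of all genes with counts in PC and PE, 38.9% were higher at that level, and 7 of the 8 are in the table of that pair. Both counts largely restate how the tables were selected. None had an edgeR adjusted p below 0.05 in either pair or over both breeds. DESeq2 passed 1 of 10 in MC vs. ME, 1 of 8 in PC vs. PE and 3 of 6 over both breeds. Of all tested genes it passed 1.3% in MC vs. ME and 1.42% in PC vs. PE, in either direction. Over both breeds it passed 22.1% of the 1408 genes with a higher level in restricted goats.

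Among the named neutrophil genes, VNN2, a leukocyte surface enzyme of the vanin family, had a Log2FC of 1.30 ± 0.27 in MC vs. ME and 2.35 ± 0.74 in PC vs. PE. S100A8 had 2.17 ± 0.74 and 3.599 ± 1.09, and its partner S100A9 2.61 ± 0.81 and 3.59 ± 1.26 (SE). The remaining genes named by the fixed rule were MMP9, a protease of neutrophil granules and of macrophages (5.58 ± 1.64 in MC vs. ME), PGLYRP1, a peptidoglycan-binding granule protein (-1.14 ± 0.36 in MC vs. ME), ALPL (1.65 ± 0.36 in PC vs. PE) and TREM1, an activating receptor of myeloid cells (1.48 ± 0.47 in PC vs. PE). MMP9 stood at 39.6 CPM in ME2 and at most at 1.77 CPM elsewhere. MPO, a granule enzyme of neutrophils and their precursors, had at most 1 count in MC, 10, 3 and 18 counts in ME and at most 4 in PE. CD177, a neutrophil surface protein, had at most 1 count in MC and at most 10 in ME.

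CSF3R showed the same pair of libraries as CXCR2, at 8.83 CPM in PE1 and 6.98 CPM in PE3 and at most 3.12 CPM (ME3) in the rest. The summed level of 6 neutrophil genes other than the members was 6.80 to 10.7 CPM in MC, 14.4 to 52.8 in ME, 4.56 to 11.4 in PC and 11.3 to 51.3 in PE. PE2 held the lowest sum in PE and ME1 the lowest in ME. Single genes weighed heavily in these sums. MMP9 alone made up 39.6 CPM of the 52.8 CPM in ME2, and ALPL 8.12 CPM of the 10.3 CPM in MC2. The sum of 10 macrophage genes was 41.8 to 75.1 CPM in MC, 105.4 to 342.3 in ME, 42.8 to 62.1 in PC and 72.6 to 125.8 in PE, highest in ME2. The part of either sum in the levels of the 5 genes was not tested.

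The oxidase is assembled on activation from the membrane-bound heavy chain and its cytosolic partners. NCF1, the organizer subunit, was at 0.577, 0.457 and 0.600 CPM in MC, 0.695, 1.02 and 0.929 CPM in ME, 0.407, 0.219 and 0.409 CPM in PC, and 1.98, 0.885 and 1.68 CPM in PE. It rose by 1.42 ± 0.27 over both breeds (SE, edgeR adjusted p = 0.0181). NCF4, another cytosolic subunit, had a Log2FC of 0.08 ± 0.25 in MC vs. ME and 1.49 ± 0.29 in PC vs. PE, and 0.79 ± 0.20 over both breeds (edgeR adjusted p = 0.0604). RAC2, the small GTPase of the complex, was at 1.11 ± 0.42 in MC vs. ME. The interaction of diet and breed was -1.45 ± 0.54 for NCF1 and -1.40 ± 0.40 (SE) for NCF4, and neither passed (edgeR adjusted p of 1 for each).

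The heavy chain thus had its larger Log2FC in Majorera goats, and NCF1 and NCF4 had theirs in Palmera goats. These are values side by side, without a test of 1 subunit against another.

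Around C5AR1, 10 of 17 other complement genes had counts in some library. C5, the source of C5a, had the opposite sign to its receptor. Its levels were 10.97, 16.7 and 36.2 CPM in MC, 8.47, 1.35 and 13.0 CPM in ME, 13.9, 21.2 and 36.2 CPM in PC, and 3.82, 6.94 and 2.21 CPM in PE. The Log2FC was -1.502 ± 0.744 in MC vs. ME and -2.48 ± 0.46 in PC vs. PE (edgeR adjusted p = 0.669 and 0.0810), and -1.98 ± 0.49 over both breeds (edgeR adjusted p = 0.0521, DESeq2 0.00436).

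C5AR2, the other C5a receptor, had a Log2FC of 0.67 ± 0.35 in MC vs. ME and 1.41 ± 0.38 in PC vs. PE, and 1.05 ± 0.28 over both breeds (SE, edgeR adjusted p = 0.0692). The rule also named CR2, a complement receptor of B cells (-1.54 ± 0.34 in MC vs. ME), CFB (1.13 ± 0.51 in MC vs. ME), ITGAX, an integrin chain of a complement receptor (2.17 ± 1.01 in MC vs. ME), and the C1q chains C1QA and C1QB (0.28 ± 0.22 and 0.44 ± 0.20 in PC vs. PE). The edgeR test after adjustment passed none of these. ITGAX was at 8.48 CPM in ME2, at 0.571 and 0.739 CPM in ME1 and ME3, and between 0.459 and 1.09 CPM in MC.

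For CXCR2, 4 of 9 entries on the list of its ligands had counts. CXCL6 stood at 38.96 ± 5.90 CPM in MC and 17.2 ± 1.52 in ME (SD, n = 3 each), with a Log2FC of -1.198 ± 0.195 (edgeR adjusted p = 0.109, DESeq2 7.70e-05), and at 0.18 ± 0.43 in PC vs. PE. IL8 (interleukin 8) had a Log2FC of 2.46 ± 0.91 in MC vs. ME, where its counts were 4, 6 and 0 in MC and 5, 80 and 38 in ME. CXCL1 had 2.26 ± 0.51 in PC vs. PE, with between 2.37 and 8.74 counts in PC and between 14.14 and 42.48 in PE. LOC102182683, growth-regulated alpha protein-like and by that name a chemokine of the CXCR2 ligand family, was at -0.35 ± 0.33 in MC vs. ME and 2.20 ± 0.32 in PC vs. PE (edgeR adjusted p = 0.0706, DESeq2 2.43e-05). PE1 and PE3, the libraries with the most CXCR2, also had the most LOC102182683 (12.6 and 10.3 CPM).

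Of 5 genes on the list of S100 receptors, TLR4 alone had counts, with a Log2FC of -0.05 ± 0.36 in MC vs. ME and -0.62 ± 0.19 in PC vs. PE. Around TRPM2, NUDT9, a hydrolase of ADP-ribose, was at 0.61 ± 0.21 in MC vs. ME, and none of the 6 other pathway genes had counts in both PC and PE.

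Macrophages take up milk fat and dead cells in the udder. Over both breeds 4 of the 10 macrophage genes with counts in all libraries had an edgeR adjusted p below 0.05 and 8 of 10 in DESeq2, all higher in restricted goats, beside 14.9% and 22.1% of all 1408 genes. Their median Log2FC was 1.23, beside 0.21 over all 1408. GPNMB, a glycoprotein of lipid-laden macrophages, rose by 2.29 ± 0.37 (edgeR adjusted p = 0.00966), CD68 by 1.53 ± 0.30 (0.0205, edgeR), CTSS, a lysosomal protease, by 1.25 ± 0.23 (0.0157, edgeR) and LAPTM5 by 1.21 ± 0.26 (0.0295, edgeR). In MC vs. ME 9 of 12 were higher at an unadjusted edgeR p below 0.05 with a median of 1.53, beside 33.9% of all genes with counts. In PC vs. PE 8 of 12 were higher and 1, SIGLEC1, lower, with a median of 0.86, beside 38.9% higher of all genes with counts. In each pair 9 of the 12 are in its deposited table. The named genes of that pair included AIF1 (1.14 ± 0.22) and LGALS3 (1.40 ± 0.33), and MSR1, a scavenger receptor, was at 2.12 ± 0.57 in MC vs. ME.

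Lymphocyte markers were sparse. NKG7, a granule protein of T and NK cells, rose over both breeds by 1.27 ± 0.20 (edgeR adjusted p = 0.00965) and BLNK, a B cell adaptor, by 1.11 ± 0.21 (edgeR adjusted p = 0.0171). CD3E, which defines T cells, was at 0.75 ± 0.29 (edgeR adjusted p = 0.340) and IGJ, the joining chain of antibodies, at 0.24 ± 0.29 (edgeR adjusted p of 1). Of the milk protein genes, LALBA, the regulatory subunit of lactose synthase, fell by 2.11 ± 0.37 over both breeds (edgeR adjusted p = 0.0135) and CSN1S2 by 1.79 ± 0.41 (edgeR adjusted p = 0.0385). The part of other white blood cells in the levels of the 5 genes was not tested.

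The size of the differences depended on how the libraries were scaled. The 5 genes were higher in restricted goats of both breeds under each scaling tried. With the mapped reads alone, without the correction for composition, the median over all genes in MC vs. ME moved from 0.11 to 1.01. The correction factors were 0.82, 0.76 and 0.77 in MC1 to MC3 and 1.101, 2.00 and 1.17 in ME1 to ME3. Relative to that median, the 5 genes stood at 1.01 (CXCR2), 1.52 (C5AR1), 1.71 (TRPM2), 1.91 (LOC102175938) and 2.99 (S100A12), beside 1.06, 1.65, 1.69, 1.76 and 2.69 with the correction. In PC vs. PE the medians were 0.01 and 0.04, and the values relative to them lay between 0.56 and 3.26 without the correction and between 0.55 and 3.37 with it.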

How the data were processed

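Libraries came from mammary biopsies of 12 goats, 3 per group. The authors sequenced stranded poly(A) RNA, mapped it with Bowtie2 2.2.3 (goat assembly CHIR_1.0) and deposited RSEM 1.2.17 expected counts per gene and library for genes with p below 0.05 in each pair of groups. The p-values and FDR of the deposited tables, made by the authors with edgeR 3.2.4, were used only to derive the number of genes tested. Fold changes in the tables were not used. 0 columns of values per sample were left out.

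Counts were rounded and tested with edgeR 4.0.16 (quasi-likelihood F test, limma 3.58.1, R 4.3.3). Library sizes were mapped reads times TMM factors over 1998 rows of the study's raw counts that were not selected for differing, which also gave the dispersion trend (at least 1 CPM in at least 3 libraries). Benjamini-Hochberg adjustment used as its total the genes tested by the authors in that pair. The 12-library fits used 15221, the largest total of any pair. Genes lacking counts were taken to have larger p, so within a pair an adjusted p is an upper bound. Over all 12 libraries the genes tested in any pair could outnumber 15221. Adjusted p-values of those fits, among them the edgeR 0.0473 of C5AR1, could then be too small. DESeq2 1.42.0 was an alternative. Tests were tried on simulated data. Replicates were separate goats, and within-group pairs of libraries differed beyond sampling noise.

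Named were the members, up to 4 other genes per list with the smallest p in MC vs. ME and in PC vs. PE for the lists described, and the genes of most similar profile (1 per member, 5 for their mean). The 12 lists were neutrophil, NADPH oxidase, complement, CXCR2 ligands, S100 receptors, TRPM2 pathway, macrophage, B and plasma cell, T and NK cell, erythroid, eosinophil and mast cell, and milk protein. No erythroid or eosinophil and mast cell gene had counts in all 12 libraries. Members and lists were chosen with earlier results of these data known. Gene names follow the tables. S100A12 is LOC102169149 in the RefSeq annotation of ARS1.2, where the other 4 members have the same symbol. No sequences and no coordinates were used. A withheld item of the lists is not reported here.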

Additional observations from a re-analysis of the deposited data

How the results depend on the processing

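In MC vs. ME and PC vs. PE and over both breeds, the 5 genes kept their sign under every alternative that was run. Few counts and 3 libraries a group limit the calls: all 4 calls of the diet effect besides TRPM2, made or missed, changed when some single library was left out. Beside the main counts of called genes over all genes (6 in MC vs. ME and none in PC vs. PE, then 1 in MC vs. PC and 0 in ME vs. PE, 10 in MC vs. PE, 0 in ME vs. PC, 79 for diet, 1 for breed and 1 for the interaction), the alternatives gave the following.

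With mapped reads alone the counts were 327 (MC vs. ME), and 165 (PC vs. PE), then 177 (ME vs. PE), 164 (MC vs. PE), 669 (ME vs. PC), 269 (diet), 6 (breed) and 4 (interaction). By DESeq2's Wald test they were 78, 86, 5 (MC vs. PC), 17, 79, 119, 123, 5 (breed) and 7 (interaction). When the spread was estimated without a filter on low counts they were 33 (MC vs. ME), and 132 (PC vs. PE), then 18 (MC vs. PC), 84 (MC vs. PE), 58 (ME vs. PC), 130 (diet), 4 (breed) and 2 (interaction). TMM over the deposited genes gave 1 in PC vs. PE, 23 in MC vs. PE and 29 in ME vs. PC. DESeq2 size factors left these counts within 1.5 times of the main ones, and the edgeR adjusted p of C5AR1 for diet was then 0.0508.

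Leaving out 1 library at a time gave 0 to 31 called genes in MC vs. ME and 1 to 90 in PC vs. PE, further 0 to 3 in MC vs. PC, and 0 to 1 in ME vs. PE, 3 to 94 in MC vs. PE, 0 to 4 in ME vs. PC, 38 to 119 for diet, 1 to 2 for breed and 0 to 2 for the interaction. The highest count of each diet pair came without ME2 (31) or PE2 (90). Leaving out both, chosen after seeing the data, gave 80 for diet.

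Replicate numbers did not pair the goats: deviations of same-numbered libraries correlated between -0.44 and 0.24, and not every library correlated best with its own number. With the number as a block the counts were 0 in MC vs. ME, 74 in PC vs. PE and 3 in MC vs. PE, S100A12 in PC vs. PE had an edgeR adjusted p of 0.0255 and LOC102175938 for diet one of 0.0608, and S100A12 had an interaction of 0.16.

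Signs of small breed differences, none of which passed the test, turned with the processing, and the cause was not tested. In MC vs. PC the Log2FC was 0.34 (CXCR2), 0.064 (S100A12), 0.29 (C5AR1) and 0.32 (LOC102175938) with mapped reads alone, and 0.053 (CXCR2), 0.0050 (C5AR1) and 0.027 (LOC102175938) with TMM over the deposited genes. Without 1 library it ran from -0.75 to 0.52 (CXCR2), -1.95 to 0.81 (S100A12), -0.10 to 0.41 (TRPM2), -0.31 to 0.065 (C5AR1) and -0.36 to 0.14 (LOC102175938). In ME vs. PE it was -0.66 for S100A12 with mapped reads alone and 0.030 for TRPM2 with TMM over the deposited genes, and without 1 library it ran from -1.81 to 1.98 (S100A12) and -0.31 to 0.23 (TRPM2). The breed effect of S100A12 was 0.11 with TMM over the deposited genes, and without 1 library it ran from -1.07 to 0.81 (S100A12) and -0.059 to 0.22 (TRPM2). The interaction of S100A12 was 0.72 with mapped reads alone, and without 1 library it ran from -2.33 to 1.49 (S100A12) and -0.042 to 0.54 (TRPM2).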
